A study of Mus musculus with 4 samples.

Results

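Integrins and the basement membrane proteins that bind them were examined in fibroblasts with and without a mutation in the nuclear receptor corepressor SMRT. The set comprised 35 genes chosen by name: 20 integrin subunits, 9 laminin chains, both nidogens, perlecan (Hspg2), agrin, fibronectin and dystroglycan. Of these, 34 had a probe set annotated to exactly 1 symbol, out of 18193 genes so named on the array, and Itga11 was not analysed here. The mean signal of 18 genes lay above the median of all values, 35.1, and these 18 were among the 11057 genes tested. The other 16 had signals between 1.18 and 59.6 on single arrays of their brightest probe sets and were not tested. On their brightest probe sets all 18 lay above 35.1 on every array, so none entered the test through 1 genotype alone.

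The mutant cells were SMRTmRID 3T3-MEFs, derived from mice whose SMRT is mutated in its receptor interaction domains, and they were set against wild-type 3T3-MEFs. 3T3-MEFs are fibroblasts of mouse embryos that became a permanent line through repeated passaging. Both genotypes were undifferentiated and were harvested at confluence, with no treatment named. Per the labels, the 2 arrays of a genotype are technical replicates, and how many lines or clones stand behind a genotype is not given in the sources used here. Genotype and cell line can therefore not be told apart, and p-values measure the spread between technical replicates only. No check of the genotype label was made, since the SMRT transcript was not analysed here, and 4 arrays limit the precision.

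Integrins are cell surface receptors made of 1 alpha and 1 beta subunit, and the pairing sets which matrix protein is bound. Laminins are trimers of 1 alpha, 1 beta and 1 gamma chain that polymerise into the basement membrane, where nidogens and perlecan tie them to type IV collagen. Preadipocytes lie in a fibronectin-rich matrix, and differentiating adipocytes surround themselves with a basement membrane.

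SMRTmRID and wild-type cells differed in the levels of several laminin chains and integrin alpha subunits, while the shared partner chains Itgb1 and Lamc1 did not pass the test on their brightest probe sets. The laminin alpha chain gene Lama4, the nidogen gene Nid2 and the integrin genes Itga1 and Itgav were higher in SMRTmRID cells by at least 2-fold. The laminin alpha chain gene Lama5, the laminin receptor genes Itga3 and Itga6 and the agrin gene were lower by at least 2-fold. In all, 6 of the 18 tested genes were higher, 8 were lower and 4 missed the threshold (limma, Benjamini-Hochberg adjusted p under 0.05). That is 77.8% of them, against 65.2% of all tested genes, with 30.3% of all tested genes higher and 34.97% lower. At least 2-fold, 4 were higher and 4 lower, where 9.69% of all tested genes were that much higher and 6.79% that much lower. For 16 of the 18 genes no SMRTmRID array overlapped a wild-type array, as was so for 81.5% of all tested genes. The median log2 difference of the 18 was -0.021, beside -0.045 for all tested genes. Each difference is that of SMRTmRID minus wild-type after log2(signal + 16), a transformation that shrinks changes of dim genes. Because RNA was taken from whole cultures, fewer cells expressing a gene and less RNA per cell cannot be told apart.

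**Figure D1:**
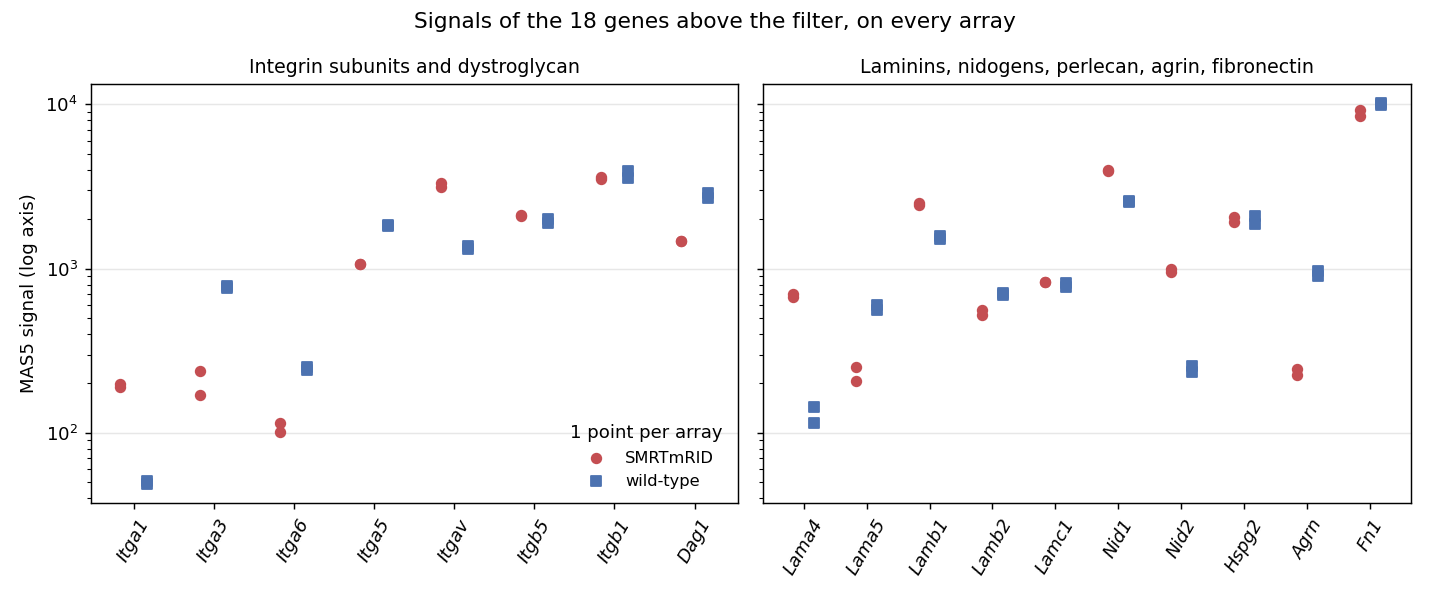
MAS5 signals on a logarithmic axis for the 18 tested genes, with 1 point per array, SMRTmRID in red on the left of each gene and wild-type in blue on its right. Lama4, Nid2, Itga1 and Itgav lie higher in SMRTmRID and Lama5, Agrn, Itga3 and Itga6 lower, while the points of Itgb1 and Hspg2 overlap between the genotypes.

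Promoter sequences are shown for the integrin and laminin genes with the greatest rise and the greatest fall among those that RefSeq's promoter table holds. Each is the 250 bases before the annotated start in build GRCm38.p6, written 5′ to 3′ along the gene as that table gives it. Capitals mark GC boxes, the motif GGGCGG on either strand, which the transcription factor Sp1 is known to bind. The Itga3 sequence is the first of 2 entries for that gene.
Itga1 chr13:115101965-115102214 (- strand): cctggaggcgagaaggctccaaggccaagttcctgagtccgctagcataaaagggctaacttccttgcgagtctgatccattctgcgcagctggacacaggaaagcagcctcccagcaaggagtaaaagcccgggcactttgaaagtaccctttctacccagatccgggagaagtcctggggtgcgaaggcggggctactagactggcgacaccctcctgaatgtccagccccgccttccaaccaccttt
Itga3 chr11:95076715-95076964 (- strand): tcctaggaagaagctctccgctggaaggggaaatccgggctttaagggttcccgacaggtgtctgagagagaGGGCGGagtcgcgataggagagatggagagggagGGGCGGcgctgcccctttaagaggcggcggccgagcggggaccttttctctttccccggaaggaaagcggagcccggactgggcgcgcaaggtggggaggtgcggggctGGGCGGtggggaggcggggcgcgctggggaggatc
Lamb1 chr12:31265043-31265292 (+ strand): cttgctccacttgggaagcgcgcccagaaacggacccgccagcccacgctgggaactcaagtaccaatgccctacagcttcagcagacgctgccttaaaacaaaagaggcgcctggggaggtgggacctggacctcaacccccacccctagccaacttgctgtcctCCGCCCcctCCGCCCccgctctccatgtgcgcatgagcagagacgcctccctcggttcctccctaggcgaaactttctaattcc
Lama5 chr2:180225860-180226109 (- strand): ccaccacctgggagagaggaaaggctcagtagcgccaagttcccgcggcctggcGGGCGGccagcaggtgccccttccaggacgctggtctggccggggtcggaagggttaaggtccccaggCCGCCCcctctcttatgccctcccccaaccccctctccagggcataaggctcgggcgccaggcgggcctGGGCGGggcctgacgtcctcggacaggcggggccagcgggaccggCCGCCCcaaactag
GC boxes stood in promoters of genes that moved in either direction. Itga1, which was higher in SMRTmRID, held 0, Lamb1, also higher, held 2, and the lower genes Itga3 and Lama5 held 3 and 4. Guanine and cytosine made up 57.6% of the Itga1 stretch, 67.6% of Itga3, 62.0% of Lamb1 and 72.4% of Lama5. The table held promoters for 24 of the 35 genes, of which 11 contained a GC box, while 32.7% of all 32851 promoter stretches did. The units differ, since a gene counted if any of its entries held the motif and the 32.7% is a share of single entries. The share among all called genes was not computed. Among the called genes with an entry, 2 of 4 that were higher and 5 of 6 that were lower contained one, as did all 3 genes with an entry that were tested and not called (Itgb5, Itgb1 and Hspg2). The half-site AGGTCA, to which many nuclear receptors bind, was searched on both strands because SMRT acts through such receptors. It was found in none of the promoters of the 24 genes, and in 14.0% of all promoter stretches. A match is a description of these letters, and a missing match says only that they are not in this window.

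The collagen-binding integrins pair with the beta1 subunit, and α1β1 is known as a receptor for type IV and other collagens. Itga1 had signals of 199 and 190.1 on the SMRTmRID arrays, against 48.7 and 50.9 on the wild-type arrays. The genotypes were well apart, with a 3.91-fold higher mean signal in SMRTmRID and a difference on the log2 scale of 1.68 ± 0.15 (SE, adjusted p = 9.37e-06, limma). Its other probe set lay below the filter, with signals of 47.3 and 37.0 in SMRTmRID and 17.9 and 8.18 in wild-type. Itga2 and Itga10, the alpha subunits of further collagen receptors, stayed below the filter, with overlapping arrays and signals between 10.8 and 36.3.

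Both laminin-binding alpha subunits above the filter fell. Itga3, whose product with β1 binds laminins that contain the α5 or α3 chain, had signals of 170.2 and 237 in SMRTmRID, against 782 and 766 in wild-type. Every SMRTmRID value was far below both wild-type values, although the SMRTmRID arrays were less even with each other than the wild-type arrays. The mean was 3.80-fold lower in SMRTmRID, a log2 difference of -1.86 ± 0.13 (SE, adjusted p = 1.34e-06, limma). Its other probe sets gave -2.63 and -2.36, both past the threshold.

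Itga6, which encodes the laminin receptor subunit that joins β1 or β4, had signals of 102 and 115 in SMRTmRID and 251 and 243 in wild-type. The arrays did not overlap, and the log2 difference was -1.08 ± 0.12 (SE, adjusted p = 4.07e-05, limma). A dimmer Itga6 probe set gave -1.41 and passed as well. Itgb4, the partner of α6 in epithelial hemidesmosomes, had signals of at most 5.43 on all 4 arrays and was not tested. Itga7, a laminin receptor subunit of muscle, was not tested either, with 44.7 and 32.2 in SMRTmRID and 18.8 and 29.3 in wild-type.

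Receptors of the RGD motif split between the α5 and αv subunits. Itga5, which with β1 forms the classical fibronectin receptor, had signals of 1064 and 1075 in SMRTmRID, against 1832 and 1853 in wild-type. Replicates lay within a narrow band in each genotype, and the log2 difference was -0.78 ± 0.05 (SE, adjusted p = 7.86e-07, limma). Averaging all its probe sets gave -0.51, and a dim probe set with signals between 46.1 and 64.2 gave -0.12 and did not pass.

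Itgav, the subunit of vitronectin receptors and of activators of latent TGF-beta, moved the other way. Its signals were 3341 and 3137 in SMRTmRID and 1368 and 1319 in wild-type, a 2.41-fold higher mean in SMRTmRID. The log2 difference was 1.26 ± 0.05 (SE, adjusted p = 5.13e-08, limma), and the other probe sets above the filter gave 1.10 and 1.26. With all Itgav probe sets averaged, dim ones included, the difference was 0.76 and still passed.

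Neither beta subunit above the filter passed the test. Itgb1, the common partner of most of the alpha subunits described here, had signals of 3629 and 3521 in SMRTmRID and 3555 and 3915 in wild-type. The genotypes overlapped, and the difference of -0.061 ± 0.055 (SE) did not pass (adjusted p = 0.354, limma). Its sign turned under quantile normalization (0.058) and without wild-type replicate 2 (0.0078), and the next brightest probe set gave 0.086 without passing.

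Itgb5, a partner of αv in a vitronectin receptor, had signals of 2112 and 2099 in SMRTmRID, against 1903 and 1994 in wild-type. These did not overlap, but the difference of 0.11 ± 0.05 (SE) missed the threshold (adjusted p = 0.0678, limma). It passed under quantile normalization, at 0.21 with adjusted p = 0.00160 (limma), whereas 1 of its other 3 probe sets gave -0.35 and passed in the opposite direction. No direction is therefore given for Itgb5. Itgb3, another partner of αv, lay below the filter, with 41.1 and 47.0 in SMRTmRID and 10.6 and 20.9 in wild-type. In the fit without a filter, which called 37.6% of 18193 genes, its difference of 0.94 passed at adjusted p = 0.0451 (limma). The second Itgb3 probe set was uneven, with 52.3 and 4.48 in SMRTmRID and 6.35 and 3.24 in wild-type.

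Other RGD receptor subunits were dim. Itga8, which with β1 binds nephronectin, had signals of 22.4 and 22.7 in SMRTmRID and 2.80 and 10.6 in wild-type. Itgb6 and Itgb8, which with αv release active TGF-beta, reached at most 35.2 and 16.1. Of the α4, α9 and leukocyte subunits none was tested. Itga4 had at most 18.0 on its brightest probe set, and Itgb2, the beta subunit of leukocytes, at most 32.8. Itgb7, another leukocyte subunit, had 11.7 and 25.9 in SMRTmRID against 45.6 and 35.3 in wild-type. Itga9 had 59.6 and 17.6 in SMRTmRID and 23.4 and 21.6 in wild-type on its brightest probe set.

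Dystroglycan, the laminin and agrin receptor that links the basement membrane to the actin skeleton through dystrophin or utrophin, fell. Dag1 had signals of 1484 and 1477 in SMRTmRID and 2676 and 2870.3 in wild-type. The SMRTmRID arrays were nearly equal and lay far below both wild-type arrays, with a log2 difference of -0.90 ± 0.05 (SE, adjusted p = 4.50e-07, limma). All 3 other Dag1 probe sets passed in the same direction, with differences between -1.30 and -0.90.

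**Figure D2:**
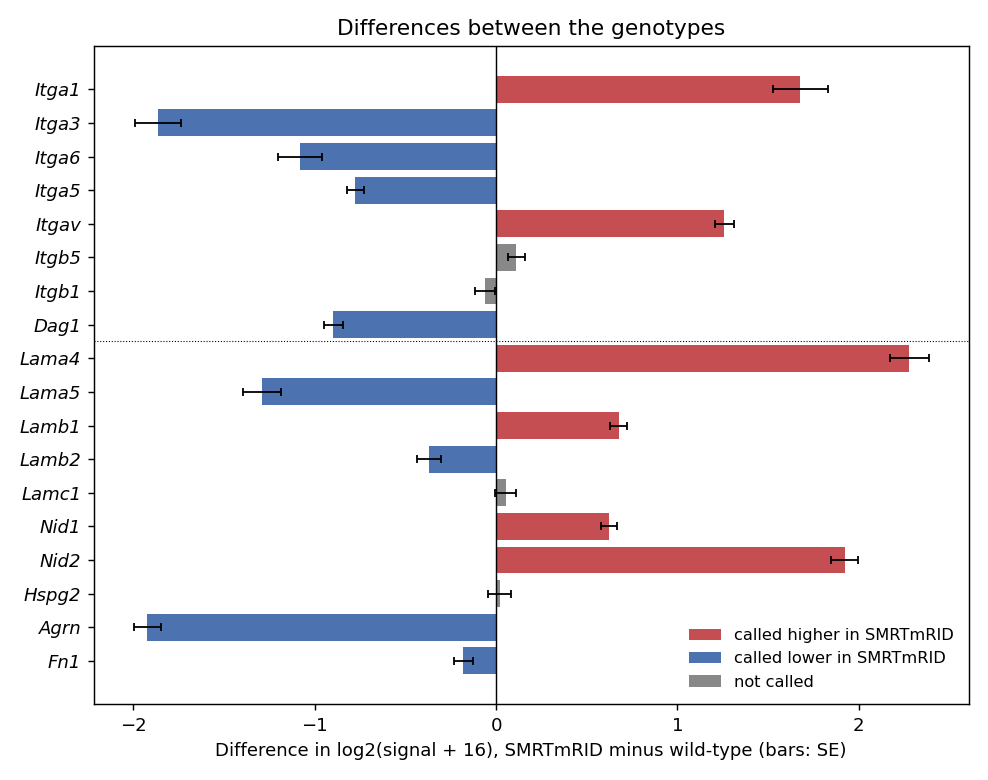
Differences in log2(signal + 16), SMRTmRID minus wild-type, for the 18 tested genes, with bars for limma's standard errors, red for genes called higher, blue for lower and grey for those not called. Receptors stand above the dotted line and matrix genes below it. Lama4 has the longest bar to the right, at 2.28, and Agrn the longest to the left, at -1.92.

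Among the laminin alpha chains, which carry the binding sites for cell surface receptors, Lama4 and Lama5 moved in opposite directions. Lama4, a chain known from the basement membranes of blood vessels, muscle and fat, had signals of 701 and 673 in SMRTmRID, against 144 and 115 in wild-type. The mean was 5.30-fold higher in SMRTmRID, a log2 difference of 2.28 ± 0.11 (SE, adjusted p = 1.32e-07, limma). Its second probe set gave 2.17 and passed too.

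Lama5, the alpha chain of many mature epithelial and vascular basement membranes, had signals of 206 and 253 in SMRTmRID and 605 and 559 in wild-type. All SMRTmRID values were below all wild-type values, with a log2 difference of -1.29 ± 0.10 (SE, adjusted p = 3.92e-06, limma). A second Lama5 probe set gave -1.51 and passed.

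The remaining alpha chains lay below the filter. Lama2, the chain of muscle and nerve laminins whose loss causes congenital muscular dystrophy, had signals of 41.3 and 35.2 in SMRTmRID, against 4.85 and 3.69 in wild-type. In the fit without a filter, which called 37.6% of 18193 genes, its difference of 1.42 passed at adjusted p = 0.00419 (limma). That value rests on 1 probe set with dim signals. Lama1, of the early embryonic laminin, had 19.5 and 19.4 in SMRTmRID and 14.1 and 1.18 in wild-type, and Lama3, of epithelial laminins, overlapped between the genotypes, at 6.97 to 36.4.

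Beta chains also moved apart, by less. Lamb1 had signals of 2505 and 2448 in SMRTmRID, against 1579 and 1510.5 in wild-type, a log2 difference of 0.68 ± 0.05 (SE, adjusted p = 1.92e-06, limma). Lamb2, the beta chain enriched at the neuromuscular junction and in the kidney filter, had 522 and 559 in SMRTmRID and 694 and 711 in wild-type. Neither gene's arrays overlapped, and the Lamb2 difference was -0.37 ± 0.07 (SE, adjusted p = 8.06e-04, limma). Lamb3, an epithelial chain, was uneven within both genotypes, with 2.29 and 29.8 in SMRTmRID and 10.9 and 37.2 in wild-type.

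Lamc1, the gamma chain shared by most laminins, had signals of 824 and 828 in SMRTmRID, against 777 and 816 in wild-type. The difference of 0.053 ± 0.058 (SE) did not pass (adjusted p = 0.452, limma). Its second probe set gave 0.24 and passed (adjusted p = 0.0152, limma), so a small rise is seen on 1 of 2 probe sets.

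Nidogens, which bridge the laminin and type IV collagen networks, were both higher. Nid2 had signals of 949 and 1000.02 in SMRTmRID and 256 and 235 in wild-type, a 3.97-fold higher mean. Nid1 had 3955 and 3979 in SMRTmRID and 2593 and 2556 in wild-type, a 1.54-fold higher mean. The log2 difference was 1.92 ± 0.07 for Nid2 (SE, adjusted p = 3.70e-08, limma) and 0.62 ± 0.04 for Nid1 (SE, adjusted p = 1.67e-06, limma). Nid1 had a second probe set above the filter, which gave 0.52 and passed, and Nid2 had only 1 probe set.

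The heparan sulfate proteoglycans of the basement membrane did not move together. Agrn encodes agrin, which clusters acetylcholine receptors at the neuromuscular junction and binds laminin and dystroglycan. Its signals were 246 and 225 in SMRTmRID, against 963 and 908 in wild-type, a 3.98-fold lower mean in SMRTmRID. The log2 difference was -1.92 ± 0.08 (SE, adjusted p = 4.29e-08, limma), and a dim second probe set gave -0.78 and passed. Hspg2, which encodes perlecan, had 1936 and 2058 in SMRTmRID and 1861 and 2082 in wild-type. The genotypes overlapped, and the difference of 0.020 ± 0.063 (SE) did not pass (adjusted p = 0.794, limma) and changed sign between settings.

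Fibronectin, the RGD-bearing ligand of α5β1 and αv integrins, was lower by a small amount. Fn1 had signals of 9251 and 8559 in SMRTmRID and 10244 and 9931 in wild-type. The arrays did not overlap, with a log2 difference of -0.18 ± 0.05 (SE, adjusted p = 0.0115, limma). That call was lost without SMRTmRID replicate 2 (adjusted p = 0.0544, limma), without wild-type replicate 1 (0.0783), without a variance trend (0.107) and with the mean of its probe sets (0.152). A second probe set gave -0.023.

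Agreement between probe sets was examined for the 14 called genes. Of these, 11 had at least 1 further probe set above the filter, 17 in all. All 17 had the sign of the brightest probe set and 15 also passed, the exceptions being the dim probe set of Itga5 and the second of Fn1. Probe sets of 1 gene were hybridised with the same RNA, so they check the measurement and are no further replicates.

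**Figure D3:**
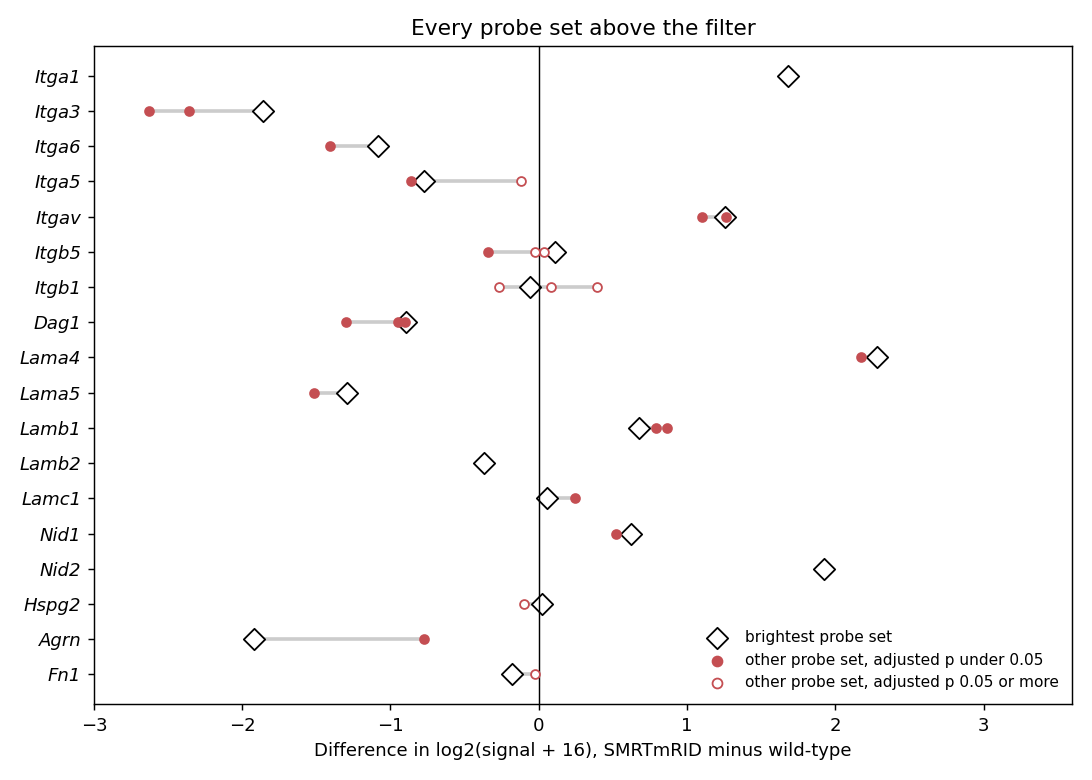
Differences in log2(signal + 16), SMRTmRID minus wild-type, for every probe set above the filter of the 18 tested genes, with diamonds for the brightest probe set of a gene, filled circles for others at adjusted p under 0.05 and open circles for others at 0.05 or more. Grey lines join the probe sets of a gene. Only Itgb5, Itgb1 and Hspg2 have probe sets on both sides of 0.

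Other genes of the basement membrane moved in both directions too. Of 13 tested, Col4a6, Col15a1 and Ntn4 had a mean above the filter in only 1 genotype. Col15a1 had signals of 50.3 and 81.5 in SMRTmRID, against 9.62 and 23.6 in wild-type. Since the means of these 3 genes lay on opposite sides of the filter, their signals or differences are given without a call. Of the 10 above it in both genotypes, 3 were higher, 5 lower and 2 neither, beside 30.3% higher and 34.97% lower among all tested genes. The median log2 difference was -0.71 over these 10 and -0.13 over all 13. Col4a6, a type IV collagen chain, had 404 and 392 in SMRTmRID, against 8.80 and 40.9 in wild-type, where its mean lay below the filter, a log2 difference of 3.46 ± 0.32 (SE). Smoc2, a secreted calcium-binding protein of the basement membrane, had -3.07 and Ntn4, a laminin-related netrin that interferes with laminin assembly, had -2.17. Ntn4 ran from -3.41 with a pseudocount of 1 to -1.13 with 64, since its SMRTmRID signals were only 15.2 and 4.25.

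The type IV collagen genes form 3 neighbouring pairs, singled out here after their values were seen. Col4a1 and Col4a2, which are neighbours and encode the chains of the ubiquitous network, were both lower. Col4a1 had 608 and 632 in SMRTmRID, against 1597 and 1711 in wild-type, and the Col4a2 signals were 427 and 425 in SMRTmRID and 1031 and 1106 in wild-type. Col4a5 and its neighbour Col4a6 were both higher in signal. Col4a5 had 3409 and 3211 in SMRTmRID and 1362 and 1331 in wild-type. The log2 differences were -1.39 for Col4a1, -1.29 for Col4a2 and 1.29 for Col4a5, and these 3 genes passed. Col4a3 and Col4a4, the remaining pair, lay below the filter and were not tested, with signals of 15.6 and 14.2 in SMRTmRID and 10.6 and 20.9 in wild-type for Col4a3 and of 3.42 and 6.89 in SMRTmRID and 18.2 and 5.59 in wild-type for Col4a4.

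Further integrin ligands went both ways, with 5 of 11 tested higher and 4 lower, beside 30.3% and 34.97% of all tested genes. Their median was -0.055, and 0.33 without Edil3, which was above the filter only through wild-type. Postn (periostin, a ligand of αv integrins) had a log2 difference of 6.78, Vcam1, the ligand of α4β1, of 3.14 and Ccn3, a matricellular ligand, of 2.95. The 4 lower genes, named after their values were seen, were Ccn2 (-1.59), Fbln5 (-1.57), Ccn1 (-1.24) and Mfge8 (-1.08). The Vcam1 signals were 2677 and 2658 in SMRTmRID and 301 and 276 in wild-type, whereas Itga4, which encodes the alpha subunit of its receptor, was below the filter. Of the other integrin subunits only Itga2b was tested, and its difference of -0.042 did not pass.

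Genes of integrin activation and of focal adhesions, the actin-linked sites where clustered integrins grip the matrix, were lower more often than higher. All 36 with a named probe set were tested. Of these 20 were lower, 9 higher and 7 neither, and their median was -0.29 beside -0.045 for all tested genes and shares of 34.97% lower and 30.3% higher among all of those. Fermt3 was above the filter only through wild-type. Without it 20 of 35 were lower, 9 higher and 6 neither, with a median of -0.27. Kank1, which encodes a talin-binding protein at the rim of adhesions, had signals of 79.0 and 88.6 in SMRTmRID, against 341 and 324 in wild-type, a difference of -1.80. Cd151, a tetraspanin that associates with the laminin-binding integrins α3β1 and α6β1, had 849 and 865 in SMRTmRID and 2334 and 2388 in wild-type. Its difference was -1.45 ± 0.05 (SE, adjusted p = 1.88e-08, limma), and -0.96 with all probe sets averaged. Lpp, a zyxin relative, rose by 1.47. Core adhesion genes named after their values were seen included Tln1 (talin, -0.68), Ilk (integrin-linked kinase, -0.83) and Vcl (vinculin, -0.87), while Fermt2 (kindlin, an integrin activator) rose by 0.34. Parva (0.18), Lims1 (0.22) and Rsu1 (0.25) of the same list were also called higher, and Tln2 (-0.023) did not pass.

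Genes of the dystroglycan complex and of dystroglycan glycosylation were called in 53.8% of 13 cases, against 65.2% of all tested genes. Of the 13, 4 were higher, 3 lower and 6 neither, and their median was 0.095. Sgcd was above the filter only through wild-type. Without it 4 of 12 were higher, 3 lower and 5 neither, with a median of 0.11. Sgce (a sarcoglycan) rose by 1.15 and Dtna (dystrobrevin) by 1.01, the second being 0.55 with its probe sets averaged and 0.62 with a pseudocount of 64. Gmppb, an enzyme that supplies mannose for dystroglycan glycosylation, had -0.58. Of 10 tested matrix receptors outside the integrin family 4 were higher and 4 lower, beside 30.3% and 34.97% of all tested genes, with a median of -5.56e-04. Cspg4 (the NG2 proteoglycan, a pericyte marker and collagen receptor) had 46.9 and 41.1 in SMRTmRID, against 774 and 808 in wild-type, a difference of -3.75. Plaur, the urokinase receptor and an integrin partner, had -1.85, and Ddr2, a receptor of fibrillar collagen, rose by 1.35.

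**Figure D4:**
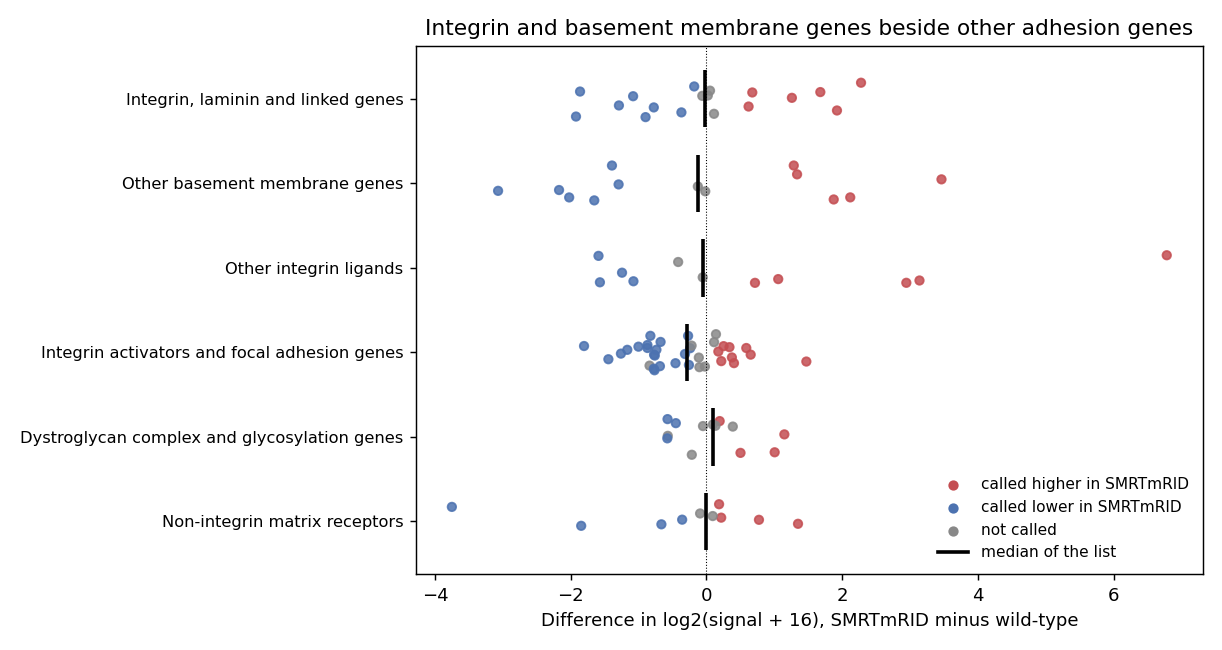
Differences in log2(signal + 16), SMRTmRID minus wild-type, with 1 point per tested gene, red for called higher, blue for called lower and grey for not called, and a black line at the median of each list. The integrin and laminin genes lie on both sides of 0, and the median of the focal adhesion list is at -0.29. Points and medians include genes above the filter in only 1 genotype, and of these Col4a6, Col15a1 and Ntn4 are coloured.

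Arrays of 1 genotype correlated at 0.991 in both genotypes across the tested genes, against 0.860 to 0.861 between genotypes. The cells were checked against markers. All 11 fibroblast markers were above the filter in their mean over 4 arrays, with summed signals of 78439 to 82194 in SMRTmRID and 61706 to 63879 in wild-type, but Thy1 and Fap passed it only through SMRTmRID. Thy1 had 3172 and 3184 in SMRTmRID, against 20.6 and 6.57 in wild-type, and Fap had 484 and 472 in SMRTmRID, against 4.20 and 9.04 in wild-type. Pdgfra had 4828 and 5090.5 in SMRTmRID and 247 and 262 in wild-type, a 19.5-fold higher mean in SMRTmRID. Of the 9 fibroblast markers above the filter in both genotypes, 5 were called higher, 2 lower and 2 neither. Among all tested genes 30.3% were higher and 34.97% lower. The lower markers were Vim (-0.16) and S100a4 (-0.31), and Col1a1 and Twist1 did not pass. None of 9 endothelial markers was above the filter, and their highest signal was 44.3. Of 10 epithelial markers 4 were, with sums of 410.02 to 423 in SMRTmRID and 387 to 422 in wild-type. Cdh1, which defines epithelial cells, had 2.41 and 1.61 in SMRTmRID and 55.9 and 42.3 in wild-type, while Krt19, a keratin, had 53.9 and 82.8 in SMRTmRID and 6.11 and 4.98 in wild-type. Of the leukocyte markers 4 of 10 were above it, with sums of 581 to 616 in SMRTmRID and 403 to 625 in wild-type, and Ptprc had at most 11.9. Lyz2 (105 and 95.3 in SMRTmRID, 27.4 and 15.6 in wild-type) and Cd14 (209 and 198, 157 and 141) were called higher. Csf1r and Adgre1 overlapped, and Tyrobp and Cd68 were lower in SMRTmRID at dim signals. Lyz2 and Krt19 passed the filter only through SMRTmRID, and Acta1, of skeletal muscle, only through wild-type. Skeletal muscle markers summed to 169 to 184 in SMRTmRID and 290.1 to 462 in wild-type, with 3 of 8 above the filter, and Acta1 had 8.63 and 4.35 in SMRTmRID and 324 and 203 in wild-type. Myog and Des went the other way at low signals, with 18.5 and 21.2 in SMRTmRID against 2.92 and 1.88 in wild-type for Myog and 23.2 and 24.02 in SMRTmRID against 9.50 and 1.499 in wild-type for Des. Schwann cell and neural crest markers summed to 194 to 208 in SMRTmRID and 131 to 161 in wild-type, with 2 of 6 above it. No marker was at 0, but such low signals show neither presence nor absence of a cell type. The part of any of these cell types in the results was not tested.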

How the data were processed

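Total RNA of 3T3-MEFs was measured on 4 Affymetrix arrays, 2 per genotype, and grouped by the genotype in the sample titles. The deposited values are linear intensities, 1 for each probe set on each array, made with MAS5 according to the submitters' processing notes. Trimming 2% of probe sets at either end left a mean of 200.0 on all arrays, so the deposited values were already scaled. Detection calls were not used here. The 64 control probe sets were left out, and of the other 45037 probe sets 34945 carried 1 gene symbol in the platform annotation, 932 carried several and 9160 were unnamed here. The probe set with the highest mean stood for a gene, and genes whose mean exceeded the median of all values, 35.1, were tested. Genotypes were compared on log2(signal + 16) with the linear model of limma 3.58.1 (R 4.3.3), using eBayes with trend, with Benjamini-Hochberg adjustment over all 11057 tested genes. The script was tested on simulated data. All 35 genes are accounted for, and up to 3 called genes of each further list are named by size of difference. Some others are named after their values were seen. The genes, the lists and the tests were chosen with earlier results of these data known. Alternatives were other pseudocounts, filters, scalings and probe set rules, no variance trend, the replicate number as a block, and omission of single arrays. Other probe sets of a gene were read from 1 fit over all 20080 named probe sets above the filter. Figures were drawn with matplotlib 3.10.9.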

Additional observations from a re-analysis of the deposited data

How the results depend on the processing

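Over all genes, 7213 of 11057 were called in the reported fit, 5191 of 6834 with the filter at the 75th percentile and 6839 of 18193 without a filter. The number of integrin and basement membrane genes called was 14 of 18 in the reported fit. It ranged from 12 of 16 with the filter at the 75th percentile to 16 of 34 without a filter. Leaving out each array in turn gave 13 to 14 calls for these genes, and 6566 to 6605 over all genes against 7213. The counts for the other adhesion lists were recomputed under the same settings as an addition made after seeing the data. They ran from 59 of 70 tested genes with the filter at the 75th percentile to 68 of 84 with the replicate number as a block, against 64 of 84. The 64 include Col4a6, Col15a1 and Ntn4, whose means lay above the filter in only 1 genotype. Without a filter 62 of 101 were called, so the number tested moved with the setting. All 13 called genes other than Fn1 kept their direction and stayed past the threshold under every setting in which they were tested, other probe sets aside. Signs turned only for genes that did not pass. Itgb1 was 0.058 with quantile normalization, 0.18 with the mean of its probe sets, between -0.13 (without wild-type replicate 1) and 0.0078 (without wild-type replicate 2) when 1 array was left out, and 0.086 and 0.39 on other probe sets. Itgb5 was -0.056 with the mean of its probe sets and -0.35 and -0.024 on 2 others. Hspg2 was -0.039 with the mean of its probe sets, -0.097 on another, and -0.060 to 0.10 when 1 array was left out, with -0.024 without SMRTmRID replicate 2 and -0.060 without wild-type replicate 1. Lamc1 passed with the mean of its probe sets (0.15, adjusted p = 0.0469, limma). The cause of these shifts was not tested. The labels do not say whether same-numbered arrays of the genotypes belong together, and the deviations of such arrays correlated at 0.012. With the replicate number as a block 14 of the 18 genes were called, 6 higher and 8 lower, along with 7420 of all genes and 68 genes of the other lists. Genes near the median signal have little signal over background, and differences of genes below the filter depend on the pseudocount.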

Other observations

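Itga9, which lay below the filter, had probe sets that did not resemble each other. The second probe set of Itga9, the alpha subunit of a tenascin and osteopontin receptor, had signals of 41.1 and 66.1 in SMRTmRID, against 2.28 and 6.70 in wild-type, while its brightest probe set overlapped between the genotypes. The third had 24.9 and 24.7 in SMRTmRID and 18.1 and 3.61 in wild-type. Itga4 had 5 probe sets, all with signals of at most 25.2.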
